A study of Mus musculus with 27 samples.

Results

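The genes described here are 7 markers of granulosa cells, the supporting cells of the ovary, and of pregranulosa cells, their fetal forerunners: *Foxl2*, *Irx3*, *Irx5*, *Runx1*, *Esr2*, *Fshr* and *Amhr2*. They were taken by symbol from the 48795 genes of the tables, and each symbol matched 1 gene. RNA-seq had been done on 27 libraries of mouse cells in 9 groups of 3. All cells came from 1 line of XY embryonic stem cells, clone 7 of an F1 cross of C57BL/6 and CBA, that carries the *Tesco-CFP* reporter of Sertoli cells and *R26-rtTA*, which allows genes to be switched on with doxycycline. No group holds ovarian cells or XX cells, so the 7 genes were followed in XY cells steered towards the gonad and then towards Sertoli cells.

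ESC are the undifferentiated stem cells. EpiSC had been kept for 60 h in 1% knockout serum replacement, with Activin A at 20 ng/ml and bFGF at 12 ng/ml. M, the early mesoderm stage, followed with 36 h of the PI3 kinase inhibitor LY294002 (10 µM), BMP4 (10 ng/ml) and bFGF (20 ng/ml). The intermediate mesoderm conditions IM1 to IM5 all had bFGF (5 ng/ml) and BMP4 (20 ng/ml). IM1 had nothing further, while IM2 to IM5 also had retinoic acid (100 nM). Activin A (10 ng/ml) was added in IM2 and IM5, and CHIR99021 (0.3 µM), which activates WNT signalling by inhibiting GSK3, in IM4 and IM5. iSLC, the induced Sertoli-like cells, were IM3 cells given lentiviruses for *Nr5a1* and *Dmrt1* under doxycycline and sorted for CFP. Their medium held Activin A, EGF, FGF9, FSH, prostaglandin D2 and testosterone. BMP4, bFGF and retinoic acid are not among its listed additions. IM3 was neither sorted nor infected, so the factors, the medium, the sort and the time in culture cannot be told apart in the comparison of iSLC with IM3.

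In the fetal gonad the supporting cells of both sexes arise from one bipotential precursor. *Foxl2* and *Runx1* encode transcription factors that help to keep the ovarian fate, and *Irx3* and *Irx5* are homeobox genes needed for the contact between granulosa cells and oocytes. *Esr2* encodes oestrogen receptor β, *Fshr* the receptor for follicle stimulating hormone and *Amhr2* the type II receptor for anti-Müllerian hormone (AMH). The last pair is also used by Sertoli cells, and the study plots *Runx1* among its Sertoli cell markers as well. Several of the genes act outside the gonad: *Runx1* in the emergence of blood from endothelium, and *Irx3* in the neural tube, limb and kidney.

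Expected counts summed to 35923040 to 84876603 per library. In bulk RNA, fewer cells that express a gene and less RNA per cell cannot be told apart. The 2 forced genes were as labelled. *Nr5a1* was at 87.17, 93.96 and 100.27 TPM (transcript abundance per length and library) in iSLC and at most 0.15 TPM in every other library. *Dmrt1* was at 192.27 to 228.38 TPM in iSLC against 0.34 to 0.65 TPM in IM3. Libraries stood apart in 2 ways that the labels do not describe. The summed counts of 6 red-cell genes (*Alas2*, *Slc4a1* and the globins *Hba-a1*, *Hba-a2*, *Hbb-bs* and *Hbb-bt*, chosen after these data were seen), scaled to library size as CPM, were 4.02 to 27.5 in the 12 libraries of IM3, IM4, ESC and M and 0.375 to 1.38 in the 15 of EpiSC, IM1, IM2, IM5 and iSLC. Libraries also differed in how counts followed the GC content of genes. The gap in log2 level between the most and the least GC-rich of 20 bins of genes ran from -0.442 to -0.052 in IM3, -0.378 to -0.161 in IM4 and -0.453 to -0.286 in M, against 0.177 to 0.307 in IM1, 0.199 to 0.558 in IM5 and 0.496 to 0.605 in iSLC. The part of either in the results was not tested. The comparisons IM5 vs IM2, IM4 vs IM3 and IM3 vs M stay within 1 of these sets of libraries and all others cross them, and an offset for GC content is given beside a result where it changes the call or turns the direction.

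**Figure D1:**
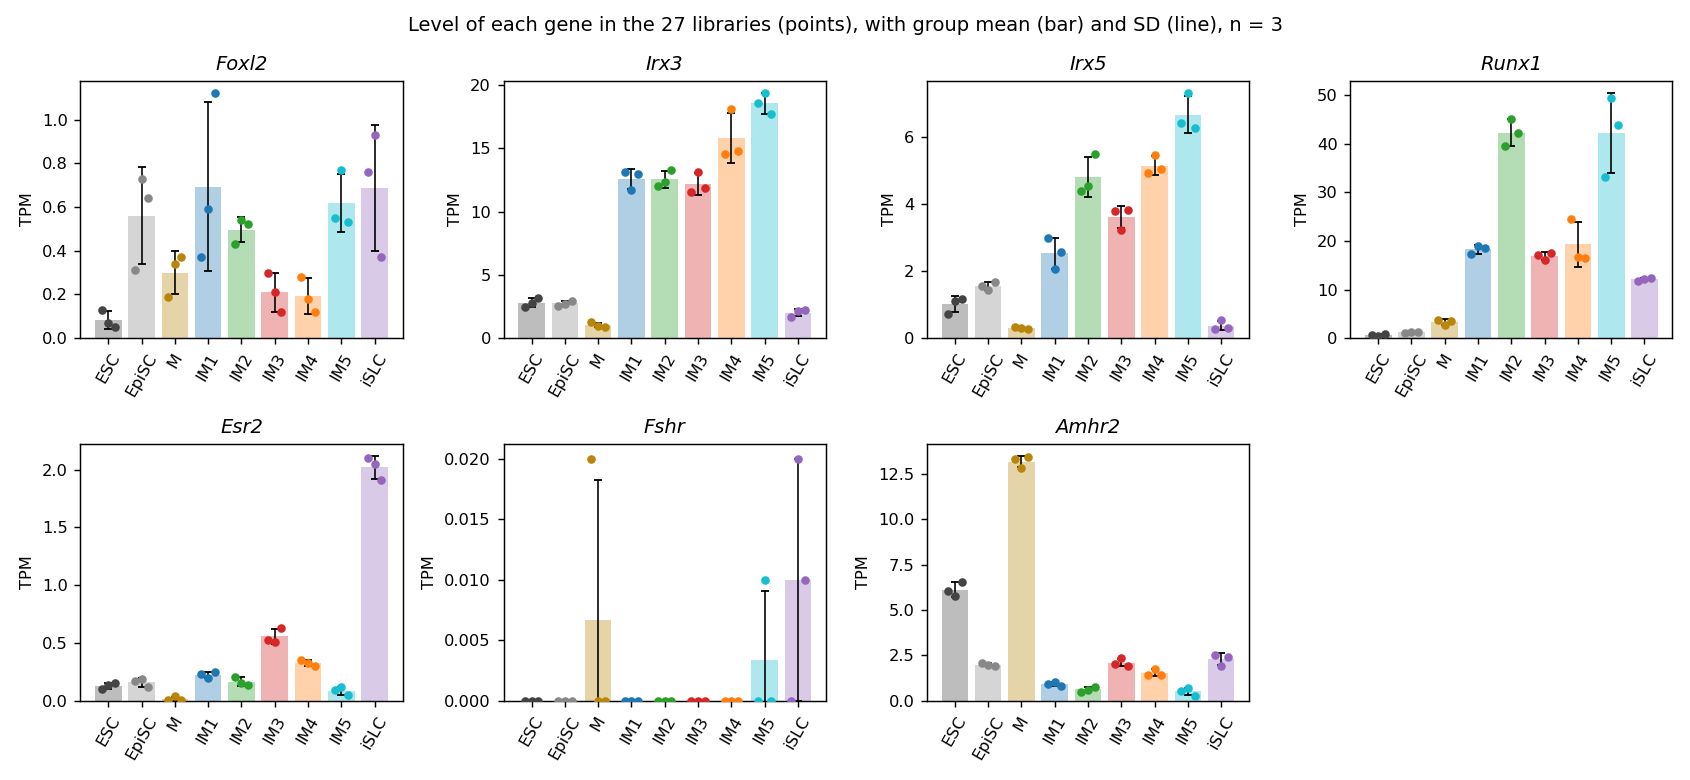
TPM of each of the 7 genes (y axis, linear, from 0, scaled per panel) in the 9 groups (x axis), with a point per library, a bar for the group mean and a line for the SD. Irx3, Irx5 and Runx1 are high in the IM groups, Esr2 in iSLC and Amhr2 in M. The Foxl2 panel ends near 1.12 TPM, and the points above 0 for Fshr are 1 count each.

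*Foxl2* was low in every library, at most 1.12 TPM. It lies at chr9:98955288-98958543 on the plus strand of GRCm38, with 1 annotated transcript. Its level was 0.05 to 0.13 TPM in ESC, on 2 to 3 counts per library, and the highest library, of IM1, had 51 counts. The other IM1 libraries had 0.37 and 0.59 TPM. IM3 gave 0.12, 0.21 and 0.30 TPM, and IM4 gave 0.12, 0.18 and 0.28 TPM. iSLC gave 0.37, 0.76 and 0.93 TPM, so the lowest iSLC library lay above the highest IM3 library, but overlapped with those of IM1, IM5 and EpiSC. In the order of group means, IM1, iSLC, IM5, EpiSC and IM2 each overlapped with the next, and so did M, IM3, IM4 and ESC; only IM2 and M were apart. The 4 lowest groups are thus the 4 with the higher counts of red-cell genes. *Foxl2* was called in none of the 3 comparisons within those sets of libraries. It was not called in M vs EpiSC, IM1 vs M or IM2 vs IM3 either, which cross the sets. It was called across them in EpiSC vs ESC, IM3 vs IM1, IM5 vs IM4, iSLC vs IM3 and the pooled IM contrast. Among the 4 groups, ESC (0.05 to 0.13 TPM) and M (0.19 to 0.37 TPM) did not overlap. The part of these sets in the level of *Foxl2* was not tested. The counts come from a model of *Foxl2* of 1241 bases, which is 38.1% of the 3256 bases of the gene in the later GENCODE M21 annotation, so reads from the rest of the transcript were not counted. *Foxl2os*, the antisense RNA that starts beside *Foxl2* and shares 12 bases of exon with it, was highest in M (1.95 ± 0.495 TPM, SD, n = 3), where *Foxl2* was at 0.30 TPM.

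*Irx3* and *Irx5* lie on chromosome 8 (91798525 to 91802067, minus strand, and 92357625 to 92376286, plus strand), 556 kb apart in one Iroquois cluster with *Irx6*. Both were near their lowest in M and highest in IM5. *Irx3* had 0.90, 0.94 and 1.24 TPM in M and 17.74, 18.59 and 19.35 TPM in IM5. IM4 followed with 14.59 to 18.10 TPM, overlapping IM5, and IM1, IM2 and IM3 could not be ordered, with 11.53 to 13.27 TPM over their 9 libraries. In iSLC *Irx3* was at 1.68, 2.17 and 2.19 TPM, below every library of ESC and EpiSC (2.47 to 3.16 TPM) and above every M library. *Irx3* shares 124 exon bases (4.49% of its own) with *Irx3os* on the other strand, and the strand setting of the counting is not given in the sources used here.

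*Irx5* had 0.27 to 0.33 TPM in M and 0.28 to 0.53 TPM in iSLC, which overlapped. It then rose in steps whose libraries did not overlap, from ESC (0.73 to 1.16 TPM) through EpiSC (1.42 to 1.66), IM1 (2.06 to 2.98) and IM3 (3.22 to 3.80) to IM2 (4.38 to 5.48), with IM4 (4.91 to 5.44) overlapping IM2 and IM5 (6.27 to 7.29) above both. The group means of the 2 genes had a correlation of 0.95 over the 9 groups, as log2 CPM. This is a description over 9 group means of cells from 1 line. The ratio of *Irx3* to *Irx5* in TPM was not constant: it was lowest in EpiSC (1.66 to 1.91), 2.42 to 4.09 over the libraries of IM2, IM3, IM4 and IM5, and higher in IM1 (4.41 to 5.68) and iSLC (4.09 to 7.06). The plot of *Irx3* against *Irx5* shows IM1 below the other IM groups.

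*Runx1* (chr16:92601466-92826149, minus strand) was at 0.48 to 0.76 TPM in ESC, 1.14 to 1.32 TPM in EpiSC and 2.66 to 3.69 TPM in M, with no overlap between them. All IM libraries were at 16.01 TPM or more. They fell into 2 sets: IM2 (39.62, 42.13 and 45.09 TPM) and IM5 (33.23, 43.79 and 49.44 TPM), the conditions with Activin A, lay above IM1 (17.28 to 18.99), IM3 (16.01 to 17.49) and IM4 (16.53 to 24.59), and within each set the ranges overlapped. iSLC held 11.74, 12.12 and 12.40 TPM, below all IM libraries. The summed TPM of 18 haemogenic and blood markers was 38 to 41.1 in IM2 and 45.1 to 53.9 in IM5, against 137 to 187 in IM3 and 174 to 283 in IM4, where the embryonic globin *Hbb-bh1* held the largest share. In IM2 vs IM3, 9 of the 18 fell, 6 of them globins or *Alas2*, and 1 rose (list median -2.42 on the log2 scale). Of all genes tested, 7.24% were called there in either direction. The sum of 10 endothelial markers was 203 to 218 TPM in IM2 and 215 to 226 in IM5, above the 163 to 193 of IM3 and 172 to 183 of IM4 but below the 337 to 346 of IM1. The part of these cells in the level of *Runx1* was not tested.

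*Esr2* (chr12:76120419-76177259, minus strand) was low before iSLC. M had 1, 4 and 1 counts, which is 0.01 to 0.04 TPM. ESC, EpiSC, IM1, IM2 and IM5 lay between 0.05 and 0.25 TPM, with ranges that overlapped from one to the next. IM4 (0.30, 0.33 and 0.35 TPM) and IM3 (0.51, 0.53 and 0.63 TPM) stood above these and apart from each other. In iSLC the 3 libraries had 1.91, 2.05 and 2.10 TPM on 214 to 261 counts, higher than any other library.

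*Fshr* (chr17:88984952-89200675, minus strand) was not detectable in any group. It had 0 counts in 23 of the 27 libraries and 1 count in each of 4, which were 1 of M, 1 of IM5 and 2 of iSLC. A count of 0 allows up to 3 counts, or 0.0353 to 0.0835 CPM depending on the library, and this limit covers counting error only. *Fshr* did not pass the filter on low counts and was not tested, so no fold change is given for it, although the iSLC medium held its ligand.

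*Amhr2* (chr15:102445367-102454633, plus strand) followed an order unlike the other genes. It was highest in M, with 12.82, 13.29 and 13.40 TPM on 763 to 822 counts. ESC came next with 5.75, 6.07 and 6.56 TPM. iSLC (1.91 to 2.53 TPM), IM3 (1.94 to 2.35) and EpiSC (1.89 to 2.07) overlapped, and IM4 (1.43 to 1.77), IM1 (0.81 to 1.01) and then IM2 (0.49 to 0.78) with IM5 (0.29 to 0.70) came below them. These levels depend on which transcripts the reads were assigned to. The tables hold 3 transcripts of *Amhr2*: the full one of 1938 bases and 11 exons, and 2 short ones over its 3′ part of 611 and 364 bases, the latter a retained intron. The effective length, which is the number of positions at which a fragment can start, averaged over transcripts by their estimated share, was 1662 to 1737 bases in M but 834 to 855 in ESC and 989 to 1137 in EpiSC. The ESC and EpiSC reads were thus assigned in larger part to short transcripts than the M reads were, and a TPM level in ESC stands for fewer counts per unit than in M. Effective length also varied elsewhere, with 1066 to 1467 bases in IM1, 779 to 1748 in IM2, 1122 to 1740 in IM5 and 1316 to 1743 in iSLC. IM3 had 1550 to 1719 and IM4 1424 to 1728 bases. In counts scaled to library size by TMM (normalized counts below), ESC had 205 ± 11.5 and M 880 ± 32.4 (SD, n = 3).

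**Figure D2:**
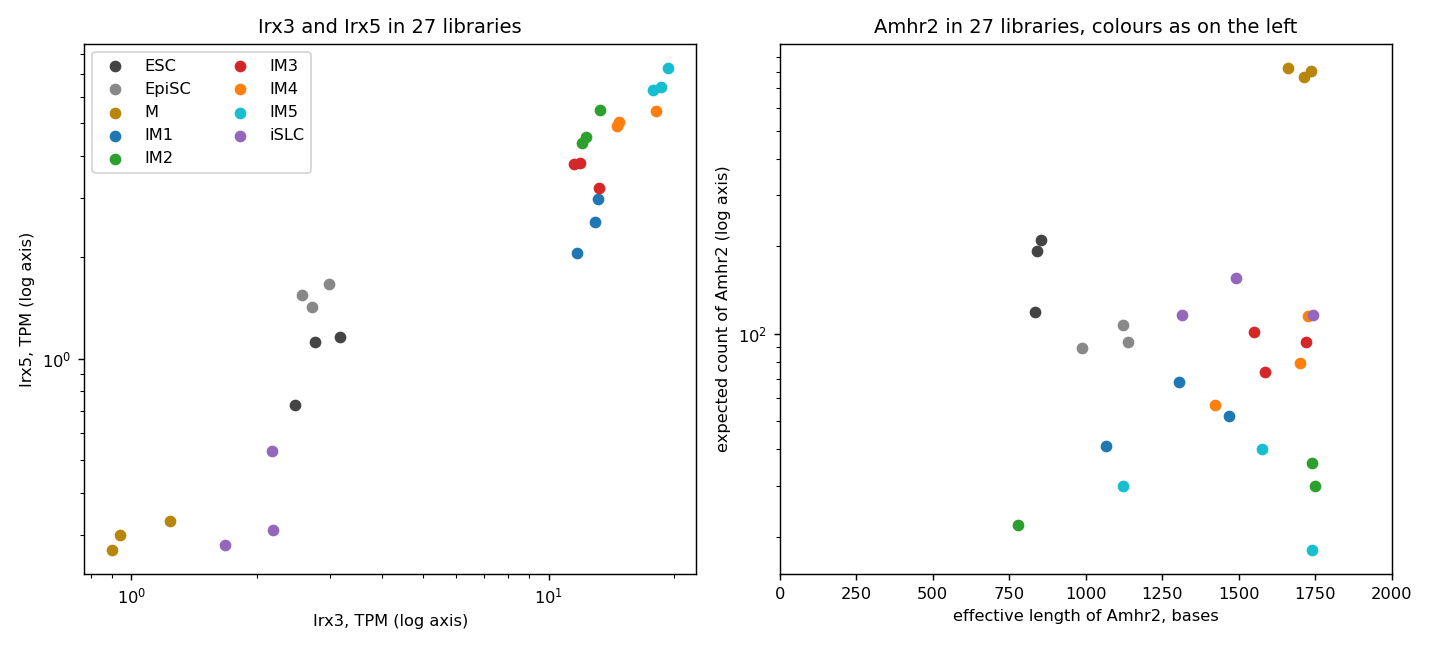
Left, TPM of Irx5 (y axis, log) against TPM of Irx3 (x axis, log) in the 27 libraries, coloured by group: the IM libraries lie at the upper right, M and iSLC at the lower left. Right, expected count of Amhr2 (y axis, log) against its effective length in bases (x axis): the 3 M libraries hold 763 to 822 counts at 1662 to 1737 bases, and the 3 ESC libraries lie at 834 to 855 bases.

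The 250 bases before the start of *Amhr2* and of *Esr2* are shown because these are the receptor genes whose levels in iSLC can be set beside the forced *Nr5a1* and *Dmrt1*. They are RefSeq windows of GRCm38.p6, at chr15:102445117-102445366 on the plus strand and chr12:76177260-76177509 on the minus strand, printed 5′ to 3′ on the strand of the gene. Capitals mark AAGGTCA, letters that NR5A1 is known to bind as a monomer.
*Amhr2*: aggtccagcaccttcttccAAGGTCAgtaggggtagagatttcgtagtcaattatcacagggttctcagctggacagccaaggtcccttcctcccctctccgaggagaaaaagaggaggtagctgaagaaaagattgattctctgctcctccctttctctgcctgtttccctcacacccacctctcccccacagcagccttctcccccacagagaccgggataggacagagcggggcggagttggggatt
*Esr2*: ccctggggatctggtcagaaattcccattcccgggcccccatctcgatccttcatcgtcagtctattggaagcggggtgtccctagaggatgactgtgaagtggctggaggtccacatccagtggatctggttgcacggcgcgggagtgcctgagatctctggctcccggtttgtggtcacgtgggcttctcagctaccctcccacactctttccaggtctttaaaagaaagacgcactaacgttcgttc
The match in *Amhr2* begins 231 bases before the start. Matches were sought on both strands, and 4.08% of all 32851 such windows hold AAGGTCA or TGACCTT. Of the 7 windows of *Foxl2*, *Irx3*, *Runx1* (2 starts), *Esr2*, *Fshr* and *Amhr2*, only the last did. The DMRT1 core ACATTGT (or ACAATGT) is in 2.56% of all windows, and the direct repeat of retinoic acid receptors with a spacing of 5 bases in 0.00913%. None of the 7 windows had either. A match is a description of letters, and none says only that these letters are not in this window.

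Calls across groups came from edgeR's quasi-likelihood test over all 20839 genes that passed the filter, and a gene was called at an adjusted p of at most 0.01 with a fold of at least 2. The replicates are described by the study as biological, without saying how cultures were split, so the p-values measure the spread between these libraries. All 6 genes tested changed over the 9 groups at an adjusted p under 0.05 (largest, *Foxl2*, adjusted p = 3e-05), as did 96.4% of all genes tested, so this count says little about the 6. In the pairs of groups below, which share libraries with each other, each value is that of its own comparison.

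**Figure D3:**
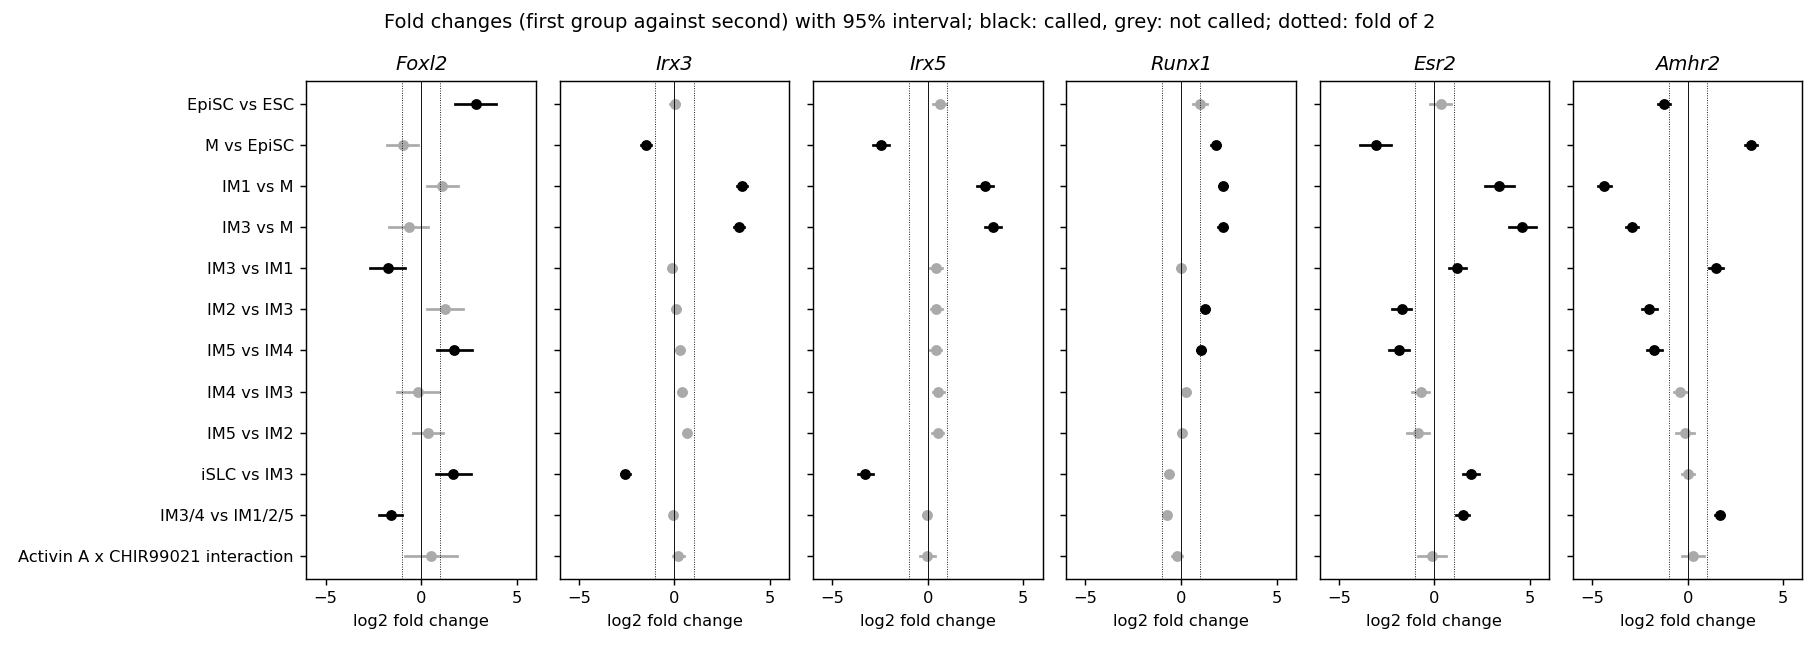
log2 fold change (x axis) of the 6 genes tested in 12 comparisons (y axis, first group against second), with 95% intervals as lines. Black marks genes called, grey those not called, and dotted lines a fold of 2. Irx3 and Irx5 are called together in 4 comparisons, M vs EpiSC, IM1 vs M, IM3 vs M and iSLC vs IM3, which share libraries.

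From ESC to EpiSC, *Amhr2* fell 2.35-fold and *Foxl2* rose, which made 2 of the 6 genes tested, where 18.4% of all genes tested were called. *Amhr2* had 205 ± 11.5 normalized counts in ESC and 87.6 ± 9.75 in EpiSC (log2 fold change -1.23, SE 0.16, adjusted p = 3.49e-07). For *Foxl2* the 3 ESC libraries held 8 counts in all and the EpiSC libraries 79, a ratio per library size of 7.52 with a 95% counting interval of 3.64 to 18. *Runx1* was 1.99 times higher in EpiSC, just short of the fold required, and would be called with an offset for effective length or for GC content (1.06 on the log2 scale in both) or without replicate 1 or 3 of ESC, replicate 3 of EpiSC or replicate 1 of IM5. *Irx3* did not differ by more than the spread (log2 fold change 0.01, 95% interval -0.23 to 0.25, and -0.20 with the GC offset). *Irx5* was 1.54 times higher in EpiSC (adjusted p = 0.00417), short of the fold and past the p only without the GC offset (0.125 with it), and *Esr2*, at 0.33 on the log2 scale, was not called.

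From EpiSC to M, 5 of the 6 changed, against 28.0% of all genes tested. *Amhr2* rose from 87.6 to 880 normalized counts (log2 fold change 3.33, SE 0.16, adjusted p = 4.17e-16), a 10-fold change that is 6.32-fold with the offset for effective length. *Runx1* rose 3.49-fold. *Irx3* fell 2.81-fold and *Irx5* 5.41-fold. *Esr2* fell to 6 counts over the 3 M libraries from 65 in EpiSC, a ratio of 8.88 with a counting interval of 3.87 to 25.1. Its log2 fold change of -3.08 becomes -4.06 without replicate 2 of M, which holds 4 of those 6 counts. *Foxl2* was at 24 normalized counts in EpiSC and 12.1 in M and was not called.

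From M to IM1, *Irx3* (11.4-fold), *Irx5* (7.88-fold), *Runx1* (4.57-fold) and *Esr2* rose and *Amhr2* fell 20.6-fold, to 42.4 ± 6.02 normalized counts (log2 fold change -4.36, SE 0.17, adjusted p = 5.31e-18). These are 5 of 6, against 27.9% of all genes. In IM3 against the same M libraries 5 of 6 were called as well, against 25.9% of all genes: *Irx3* rose by 3.38, *Irx5* by 3.40, *Runx1* by 2.17 and *Esr2* by 4.60 on the log2 scale, while *Amhr2* fell 7.5-fold. The *Esr2* values rest on the 6 counts of M. Without replicate 2 of M they are 4.38 for IM1 and 5.58 for IM3 in place of 3.40 and 4.60. *Foxl2* was not called in either, but with 26.3 normalized counts in IM1 and 12.1 in M it would be without replicate 1 of IM1 (log2 fold change 1.40, adjusted p = 0.00548).

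Retinoic acid is the one addition in IM3 against IM1. *Esr2* (log2 fold change 1.20, SE 0.23, adjusted p = 0.000101) and *Amhr2* (1.46, SE 0.18, adjusted p = 2.38e-07) were higher in IM3, with no overlap between the libraries, and *Foxl2* was lower. With the offset for effective length *Amhr2* was at 1.10 (adjusted p = 3.1e-05). The 3 calls among 6 genes compare with 12.0% of all genes tested. *Foxl2* had 18 counts in all in IM3 and 99 in IM1 (log2 fold change -1.76, adjusted p = 0.00239), and its call is lost without replicate 3 of IM1 (log2 fold change -1.26, adjusted p = 0.0328) or of IM3 (-1.51, 0.0185), with only the groups compared in the fit (-1.76, 0.0122) and with the GC offset (-1.48, 0.0101), while the direction held in these 4. *Irx3* and *Runx1* did not pass, with log2 fold changes of -0.13 (95% interval -0.33 to 0.07) and -0.03 (-0.22 to 0.17), so changes as large as a fold of 2 lie outside both intervals. *Irx3* turns to 0.19 (adjusted p = 0.114) with the GC offset. *Irx5* was not called at 0.42 (adjusted p = 0.0262), which is 0.79 with that offset (adjusted p = 0.000218).

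Activin A was added to IM3 medium in IM2 and to IM4 medium in IM5, and *Runx1*, *Esr2* and *Amhr2* were called in both. *Runx1* rose from 2844 to 6754 normalized counts in IM2 (2.37-fold, adjusted p = 1.65e-10) and from 3371 to 6914 in IM5 (2.05-fold, adjusted p = 3.17e-09). *Esr2* fell 3.28-fold and 3.61-fold, to 17.2 and 9.31 normalized counts. *Amhr2* fell 4.01-fold and 3.36-fold, to 29.3 and 26.3 normalized counts. *Foxl2* was higher in IM5 than in IM4 (log2 fold change 1.74, adjusted p = 0.00311) and not called in IM2 (1.23, adjusted p = 0.0455). This gives 3 of 6 genes called for IM2 vs IM3, against 7.24% of all genes, and 4 of 6 for IM5 vs IM4, against 8.00%. In IM5 vs IM4 the calls of both *Foxl2* and *Runx1* are lost without replicate 2 or 3 of IM4 or replicate 2 of IM5, where *Runx1* has log2 fold changes of 0.95, 0.97 and 0.96, below the fold required. The *Foxl2* call there is also lost with the GC offset (1.42, adjusted p = 0.0162). *Irx3* and *Irx5* were not called in either, with log2 fold changes of 0.07 and 0.44 in IM2 and 0.28 and 0.42 in IM5. With the GC offset *Irx3* turns to -0.21 and -0.08, and *Irx5* is at 0.12 and 0.02. The interaction test, which asks whether Activin A acted differently with CHIR99021 than without, called 0 of 6 genes in edgeR, with 0 at an unadjusted p under 0.05 and 0 called in DESeq2; 0.0432% of all genes were called. Its log2 values lay between -0.21 (*Runx1*, 95% interval -0.48 to 0.07) and 0.51 (*Foxl2*, -0.85 to 1.87).

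CHIR99021 was the one addition in IM4 against IM3 and in IM5 against IM2. In both, edgeR and DESeq2 called 0 of the 6 genes, where edgeR called 0.173% and 0.485% of all genes, and 5 and 3 of the 6 had an unadjusted p under 0.05. *Irx3* had the lowest p of the 6 in both: 1060 normalized counts in IM3 and 1408 in IM4 (1.33-fold, adjusted p = 0.0287), and 1110 in IM2 and 1714 in IM5 (1.54-fold, adjusted p = 0.000141), the latter past the p required and short of the fold. *Irx5* went the same way by 1.46-fold and 1.44-fold (adjusted p = 0.0592 and 0.022). *Esr2* was lower with CHIR99021 by more, 1.65-fold and 1.82-fold (adjusted p = 0.126 and 0.0775), on fewer counts, and its libraries did not overlap in either comparison. *Foxl2*, *Runx1* and *Amhr2* had log2 fold changes of -0.15, 0.24 and -0.39 in IM4 and 0.36, 0.03 and -0.13 in IM5.

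Pooling IM3 and IM4 against IM1, IM2 and IM5, as the study groups them, gave 3 calls of 6, against 9.67% of all genes. *Esr2* (2.77-fold) and *Amhr2* (3.19-fold) were higher in IM3/4 and *Foxl2* 3.04-fold lower. *Runx1* was 1.66-fold lower in IM3/4 (adjusted p = 3.44e-10) without reaching the fold, and *Irx3* and *Irx5* differed by -0.09 and -0.06 on the log2 scale. With the GC offset both turn, to 0.22 (adjusted p = 0.00334) and 0.30 (adjusted p = 0.0131), below the fold required. IM3 and IM4 also differ from the other IM groups in red-cell counts (6.14 to 19.7 against 0.375 to 1.38 CPM) and, save for a part of IM2 (-0.064 to 0.268), in GC trend, so these cannot be told apart from the media in this contrast.

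In iSLC against IM3, 4 of 6 genes were called, against 33.7% of all genes. *Esr2* rose from 56.8 to 212 normalized counts (3.75-fold, log2 fold change 1.91, SE 0.21, adjusted p = 6.3e-09). *Irx3* fell from 1060 to 177 (5.99-fold, adjusted p = 1.09e-16) and *Irx5* from 277 to 29 (9.63-fold, adjusted p = 4.27e-14). *Foxl2* rose from 7.43 to 24.8 normalized counts (3.2-fold, adjusted p = 0.00244), on 18 counts in IM3 and 81 in iSLC. This call is lost without replicate 3 of IM3 or replicate 2 of iSLC (adjusted p = 0.0174 and 0.016) and with the GC offset (log2 fold change 1.22, adjusted p = 0.0233). *Runx1* was 1.53-fold lower in iSLC (adjusted p = 6.07e-06), short of the fold.

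*Amhr2* had 118 ± 19.1 normalized counts in IM3 and 118 ± 10.1 in iSLC (log2 fold change 0.01, 95% interval -0.32 to 0.34, adjusted p = 0.95). With the GC offset it was 0.40 lower in iSLC on the log2 scale (log2 fold change -0.40, adjusted p = 0.0174), which is not a call either. Blood and endothelial genes were lower in iSLC too. The sums of the 18 haemogenic and blood markers and of 10 endothelial markers were 137 to 187 and 163 to 193 TPM in IM3 and 14.9 to 15.4 and 62 to 68.9 TPM in iSLC. In these lists 13 of 18 and 9 of 10 fell and 1 of each rose, where 33.7% of all genes were called in either direction. The limb and lateral plate list, to which *Irx3* and *Irx5* are linked by their roles in limb buds, fell in 9 of 10 and rose in 1. Its sum went from 234 to 264 TPM in IM3 to 64.8 to 67.3 TPM in iSLC. The part of these cell types in the falls of *Irx3*, *Irx5* and *Runx1* was not tested.

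The pathways around the 7 genes were followed by gene lists, each given as the number called higher and lower of those tested, beside the median log2 fold change. The pathway lists hold the member they are built around, so their counts restate it in part. Of all genes tested, 12.0% were called in IM3 vs IM1, 7.24% in IM2 vs IM3 and 33.7% in iSLC vs IM3. The median of all genes tested was 0 in IM3 vs IM1, IM2 vs IM3 and iSLC vs IM3. Around *Foxl2*, the list of forkhead L genes and *Foxl2os* had 2 of 3 lower in IM3 vs IM1, 2 higher in IM2 vs IM3 and 3 higher in iSLC vs IM3. The median of the last, 1.68, is the value of *Foxl2* itself. *Foxl2os* rose 1.82 and *Foxl1* 1.13 on the log2 scale in iSLC. Of the 6 Iroquois genes, *Irx1* alone fell in IM3 vs IM1 (log2 fold change -2.43) and *Irx4* alone in IM2 vs IM3 (-1.85). In iSLC vs IM3 3 of 6 fell, *Irx3*, *Irx5* and *Irx4*, of which *Irx4* fell most, from 130 to 2.7 normalized counts. Of the 5 genes of the list of RUNX factors and cofactors, *Runx1t1* rose in IM3 vs IM1 (1.32), *Runx1* in IM2 vs IM3, and *Runx3* fell in iSLC (-1.01), a call that DESeq2 did not make.

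Among 11 genes of oestrogen signalling, 3 were called in iSLC vs IM3, all higher, against 33.7% of all genes: *Esr2*, *Esr1*, which encodes oestrogen receptor α (107 normalized counts against 6.58 in IM3, log2 fold change 3.94, adjusted p = 2.78e-09), and *Gper1*, a membrane receptor of oestrogen (70 against 8.05, 3.08, adjusted p = 4.52e-09). The median of the list was 0.36. *Cyp19a1*, the aromatase that makes oestrogen, had 0 counts in all 3 iSLC libraries and 1 count over those of IM3. It was 1 of 4 genes called in IM3 vs IM1, where *Greb1*, a target of oestrogen receptors, fell from 12901 to 2542 normalized counts, *Gper1* fell and *Esr2* rose.

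Of 12 genes of FSH signalling 7 were tested. The cyclase *Adcy3* (2.32) and the kinase subunit *Prkar2b* (1.19) rose on the log2 scale in iSLC vs IM3, 2 of 7 against 33.7% of all genes, and *Prkar2b* fell in IM3 vs IM1 (-1.02). In IM2 vs IM3 edgeR and DESeq2 called 0 of the 7, with 3 at an unadjusted p under 0.05. *Lhcgr*, the receptor of luteinizing hormone, was at 0 in all iSLC libraries and had 2 to 6 counts in IM3.

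In the AMH list of 13 genes the ligand and the receptor went opposite ways in IM3 vs IM1 and in IM2 vs IM3. *Amh* itself fell in IM3 vs IM1 (59.8 to 21.9 normalized counts, log2 fold change -1.47), where *Amhr2* rose with the type I receptor *Bmpr1b* (1.55) and the target *Id2* (1.33). In IM2 vs IM3, *Amh* rose (1.10) and *Amhr2* fell. In iSLC vs IM3, *Smad9* (-2.36), which carries the signal, and the targets *Id2* (-2.22) and *Id4* (-1.25) were the genes called, all lower. *Amh* (0.40) and *Amhr2* (0.01) were not called there. BMP4 was in the IM3 medium and is not among the listed additions of the iSLC medium. The part of AMH or of BMP4 in these falls was not tested. *Amh* was at 0.56 ± 0.0781 TPM in iSLC and 0.44 ± 0.12 TPM in IM3 (SD, n = 3).

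WNT4 and RSPO1 act with *Foxl2* on the ovarian side. Of 12 genes of this pathway, 1 rose and 6 fell in iSLC vs IM3 (median -1.24): *Lef1* (-4.89), *Rnf43* (-3.53) and *Lgr5* (-3.51) fell most, while *Wnt4* rose (1.11), from 5.78 ± 0.999 TPM in IM3 to 12.4 ± 0.241 TPM in iSLC. In IM3 vs IM1 2 rose, among them *Rspo1* (1.70), and 4 fell, among them the WNT targets *Dkk1* (-2.51) and *Sp5* (-1.84). In IM2 vs IM3 3 rose, led by *Sp5* (3.31), and *Rspo1* fell (-2.40). With CHIR99021 as the one addition, edgeR and DESeq2 called 0 of the 12 in both IM4 vs IM3 and IM5 vs IM2. The medians there were 0.10 and 0.24, and 7 and 10 of the genes had an unadjusted p under 0.05. Of all genes tested, edgeR called 0.173% and 0.485%.

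Further pregranulosa and granulosa markers, 20 tested, were called in both directions: 7 higher and 7 lower in iSLC vs IM3 (median 0.24), 2 and 6 in IM3 vs IM1 (median -0.58) and 4 and 1 in IM2 vs IM3 (median 0.14). *Inhbb*, an activin and inhibin subunit, rose from 43.8 to 866 normalized counts in iSLC, and the homeobox genes *Msx1* (-5.50) and *Msx2* (-3.82) fell. *Fst*, which encodes the activin antagonist follistatin, rose in IM2 vs IM3, the comparison in which Activin A was added (83.9 to 545 normalized counts, log2 fold change 2.69). Of the 10 genes that the study lists for granulosa cells, among them *Foxl2* and *Esr2*, 6 rose in iSLC vs IM3 (median 1.38), 4 rose and 3 fell in IM3 vs IM1 and 2 fell in IM2 vs IM3. In iSLC the list summed to 63 TPM, of which *Star*, a gene of steroid synthesis, made 31.1. Of 19 Sertoli markers tested, 7 rose and 3 fell in iSLC vs IM3 (median 0.79), with the forced *Nr5a1* and *Dmrt1* among them.

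**Figure D4:**
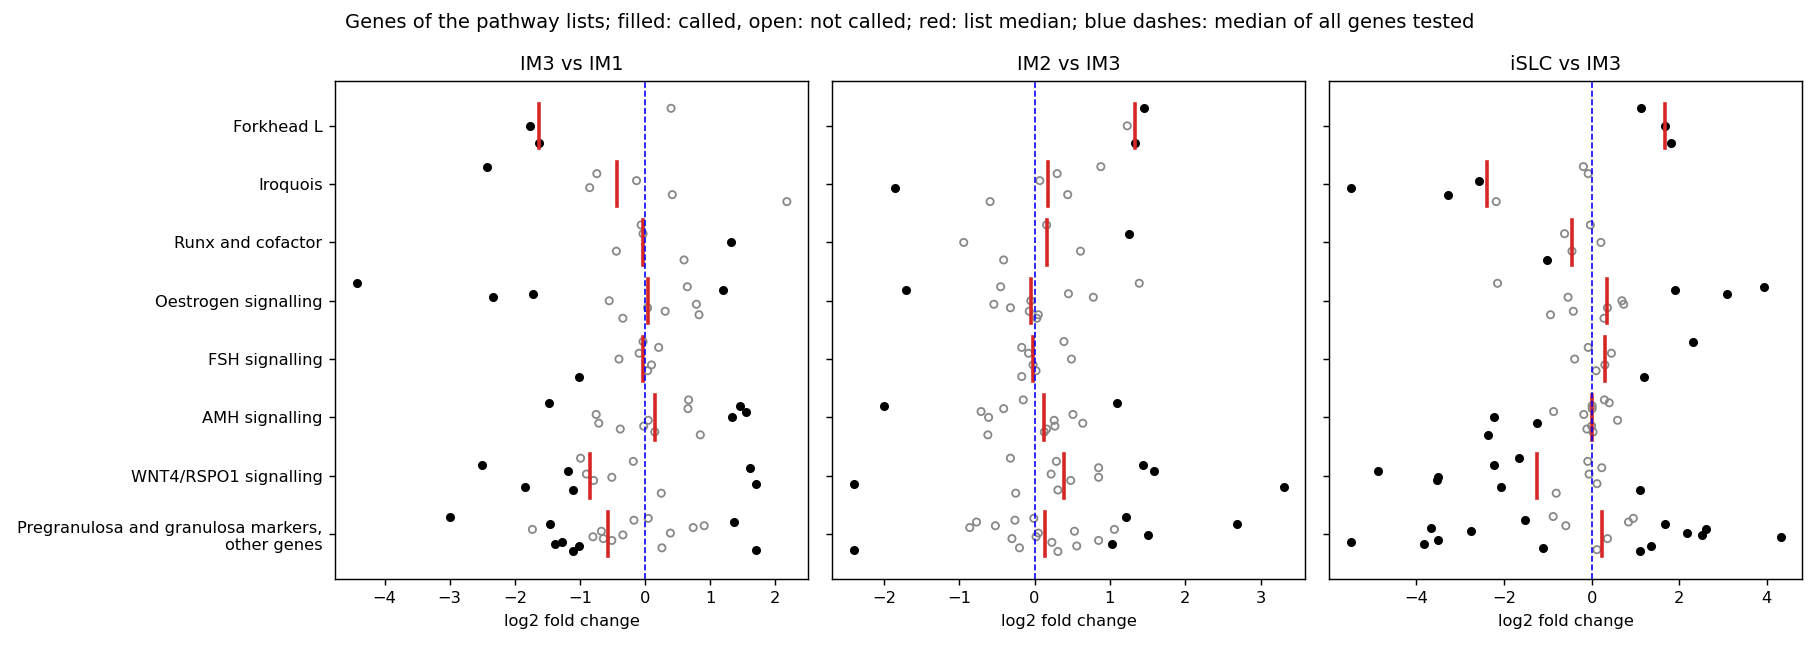
log2 fold change (x axis, scaled per panel) of each tested gene of 8 lists (y axis) in IM3 vs IM1, IM2 vs IM3 and iSLC vs IM3. Filled points were called and open points were not, red bars are list medians, and the blue dashed line is the median of all genes tested. In iSLC vs IM3 the Iroquois (-2.38) and WNT4/RSPO1 (-1.24) medians lie below it. The forkhead L median (1.68), which is the value of Foxl2 itself, lies above.

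The remaining marker lists describe the cells in which the 7 genes were read. Of 13 genital ridge and gonadal progenitor markers, 7 rose and 2 fell in IM3 vs IM1, and 4 rose and 2 fell in iSLC vs IM3. Their summed level was 629 to 679 TPM in IM3, of which *Gata4* made 340, and 587 to 615 TPM in iSLC. The list holds the forced *Nr5a1*, which is among the 4 that rose. It made 93.8 TPM of the sum in iSLC and 0.09 TPM in IM3. Neural tube markers summed to 21.2 to 24.4 TPM in IM3, of which *Tubb3* made 22.6, and to 46.8 to 59 TPM in IM2 and 49.4 to 59 TPM in IM5. Nephric markers summed to 21 to 22.8 TPM in IM3 and to 123 to 146 TPM in M.

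The genes whose group means ran most like those of each gene were found by correlation of log2 CPM over the 9 groups, among 16964 genes. For *Foxl2* they were *Lypla2*, *Rp9* and *Zbtb11os1* (r = 0.991, 0.983 and 0.971). Over the 27 libraries these fell to 0.864, 0.878 and 0.842, beside the low counts of *Foxl2*. *Irx3* ran most like *Zfp37*, *Klb* and *Plpbp* (r = 0.988, 0.985 and 0.983), and *Irx5* like *Asphd2* and *Aen* (r = 0.984 and 0.976). *Runx1* had the most such neighbours, 223 genes at r over 0.95, with *Tmem65*, *Garem1* and *Ndfip2* first (r = 0.992, 0.990 and 0.989). *Esr2* ran with *Kmt5b*, *Lpl* and *Sec16a* (r = 0.987, 0.974 and 0.970), and *Amhr2* with *Nek1*, *Gigyf2* and *Gga2* (r = 0.986, 0.975 and 0.973). Among the 6 genes themselves, *Irx3* and *Irx5* (0.95) were the pair most alike, followed by *Irx3* and *Runx1* (0.70), while *Amhr2* ran opposite to *Irx3* (-0.81) and *Irx5* (-0.78). Their highest group means were those of IM1 for *Foxl2*, overlapping iSLC, IM5 for *Irx3*, overlapping IM4, and for *Irx5*, IM2 for *Runx1*, overlapping IM5, iSLC for *Esr2* and M for *Amhr2*, so no group held all of these means.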

How the data were processed

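The members and the gene lists were chosen with earlier results of these data known. Group and replicate number of each of the 27 libraries come from the labels. The authors trimmed paired reads with Cutadapt 1.9.1, aligned them to GRCm38 with STAR 2.5.2a and ran RSEM 1.3.0; tool versions are those of the submitters' processing notes. Expected counts, as deposited, are estimates by RSEM of fragments per gene and are not normalized between libraries. TPM, as deposited, divide these by effective length and rescale them so that each library has the same sum. FPKM, as deposited, are per length and library total. The strand setting is not given in the sources used here. Effective length was read from the same deposited tables.

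Symbols and coordinates came from GENCODE M21 (GRCm38), which matched 48435 of 48795 genes (99.26%), holding 99.98% of counts. Expected counts were rounded, filtered with filterByExpr (20839 genes kept) and tested with edgeR 4.0.16 in R 4.3.3: TMM, glmQLFit with 1 coefficient per group over all 27 libraries, and glmQLFTest. A call needed an adjusted p (Benjamini-Hochberg over all genes tested) of at most 0.01 and a fold of at least 2. The study's minimum of 100 normalized reads was an alternative. Intervals of fold changes are 1.96 SE either side, and count ratios have exact 95% intervals (Clopper-Pearson) that cover counting error only. The fit was tested on simulated data.

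Named are the 7 genes (the 6 tested in each comparison, by their range in the interaction test), from the lists the 3 called genes with the largest change (all where 5 or fewer were called), *Nr5a1* and *Dmrt1*, and the 3 genes most like each member, by Pearson correlation of group means of log2 CPM (prior count 2) among tested genes with at least 1 TPM in a group. Named outside this rule, after their values were seen, are *Amh* and *Wnt4* in iSLC, *Cyp19a1* in iSLC, *Lhcgr*, the red-cell genes and genes named for the largest share of a summed list. Lists were taken from textbook knowledge, and 1 from the study. Not all names the rule gives for the 7 cell type lists are printed, and 1 gene most like a member is not reported here.

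Equal replicate numbers deviated together in IM3 and M (correlations 0.117 to 0.216) and in IM3 and IM4 (0.261 to 0.437). Each other pair of groups compared directly held a negative correlation. Pairs not compared directly were not looked at singly, and the mean correlation over all pairs was 0.021. Alternatives were DESeq2 1.42.0 (size factors, and its Wald or likelihood ratio test), an offset for effective length, no low-count filter, other thresholds, only the groups compared, a block for the replicate number, and leaving out each library. An offset for GC content was added after the data were seen. Replicate libraries differed by more than sampling noise. Proteins, single-cell and human data were not analysed here.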

Additional observations from a re-analysis of the deposited data

How the results depend on the processing

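Blocking on the replicate number left the number of members called as it was in all 12 comparisons: 2 in EpiSC vs ESC, 5 in M vs EpiSC, IM1 vs M and IM3 vs M, 3 in IM3 vs IM1, IM2 vs IM3 and IM3/4 vs IM1/2/5, 4 in IM5 vs IM4 and iSLC vs IM3, and 0 in the others. With a minimum of 100 normalized reads, both as the mean over all libraries and in a group compared, of which *Foxl2* and *Esr2* missed the first, the counts were 1 in EpiSC vs ESC, IM3 vs IM1, IM5 vs IM4 and IM3/4 vs IM1/2/5 and 2 in iSLC vs IM3. Without a fold minimum they were 4 in EpiSC vs ESC and 1 in IM5 vs IM2. Leaving out a library gave 2 to 4 in IM5 vs IM4, and from 3 to 4 in iSLC vs IM3. Over all lists, 50 genes were called in IM2 vs IM3, 33 with the read minimum and 94 without a fold minimum, and 1 in IM4 vs IM3, which became 3 without the low-count filter, 0 with the length offset and 4 with DESeq2, without a fold minimum or at an adjusted p of at most 0.05. The order of groups kept 4 to 9 of 9 places for *Foxl2* when a library was left out, fewest without replicate 3 of IM1. The other counts stayed within 1.5 times of those reported, and no called member changed direction. The precision of *Foxl2*, of *Esr2* before iSLC and of *Fshr* is limited by counts of 51 or fewer per library.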

Other observations

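*Sox9*, which drives the Sertoli fate opposed by *Foxl2*, stood at 24.8 ± 1.6 TPM in iSLC and 40 ± 5.51 TPM in IM3 (SD, n = 3). *Inha*, the inhibin α subunit made by granulosa and Sertoli cells alike, was at 14.3 ± 1.07 TPM in iSLC, against 3.44 ± 0.483 TPM or less as the mean of any other group. *Kitl*, the ligand by which supporting cells act on germ cells, was highest in M (39 ± 3.88 TPM), as *Amhr2* was, and at 24.4 ± 0.794 TPM in iSLC. These genes were picked after their values were seen.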
